A study of Mus musculus with 12 samples.

Results

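Inpp5f, Akap7 and Cntln are 3 mouse genes whose exons were found in circular RNAs (circRNAs) of the B16F10 melanoma line. They were picked by name because junction reads from all 3 were more frequent in B16F10 than in Melan-a, so their levels in that pair of lines are a description here, and no test is given for them. The members are all circRNAs whose host is named as exactly 1 of these genes: 17 of the 13474 circRNAs listed in the study (5 of Inpp5f, 5 of Akap7 and 7 of Cntln), from 3 of 4455 single host genes. All 17 have a row in the melanocyte table, where 14 have reads, and 9 also have a row in the mammary table. No Inpp5f row is in the mammary table used here, so Inpp5f is described in B16F10 and Melan-a alone.

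RNA enriched for circles was sequenced from 4 cultured mouse lines with 3 libraries each: B16F10 (melanoma), Melan-a (melanocytes, the non-tumour line of that lineage), 4T1 (breast cancer) and Eph4-ev (breast epithelium). The labels name no treatment, time, genotype or separate culture for any line. P-values therefore measure only the spread between these libraries, which may be technical, and with 1 line of each kind in a lineage, being a tumour and being that line cannot be told apart. The libraries held 16697 to 20011 junction reads in B16F10, 25072 to 33557 in Melan-a, 15572 to 44625 in 4T1 and 50648 to 56649 in Eph4-ev, so that 1 read stood for 17.7 to 64.2 RPM (junction reads scaled to a fixed total per library). Reads were found on 10 of 16 melanocyte marker genes in B16F10 and 11 in Melan-a, against 0 in 4T1 and 1 (Mitf) in Eph4-ev. Of 16 epithelial markers, 5 had reads in each mammary line, against 1 (Inadl) in B16F10 and 2 (Esrp1 and Inadl) in Melan-a. Kit, Mlana and the keratins Krt8 and Krt18 had no junction reads counted in any line, and the tables used here show only genes that form circles. Melan-a replicate 2 stood nearest to B16F10, with Pearson correlations of log2(RPM + 50) of 0.467 to 0.490 against 0.414 to 0.466 for the other Melan-a libraries (a description over circRNAs). Without it the Melan-a means given for the members become 19.9 RPM for Inpp5f, 438 for Akap7 and 99.4 for Cntln.

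A circRNA arises when the splicing machinery joins the end of an exon to the start of an upstream exon (back-splicing), which closes the exons between them into a ring without free ends. RNase R digests linear RNA and leaves such rings. A read across the back-spliced junction identifies the joined ends of a circle but not every exon between them. It carries no measure of the linear messenger RNA of the same gene. Inpp5f encodes a phosphoinositide phosphatase (Sac2) of the endocytic pathway, Akap7 an A-kinase anchoring protein that tethers protein kinase A near its substrates, and Cntln centlein, a protein of the centrosome linker.

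The junctions printed here are those of the circles that set B16F10 apart from Melan-a and of the Cntln circles they are compared with. They are shown because the junction is the only stretch that tells a circle from its linear transcript. Each run gives the last 25 bases of the final exon in lower case and, past the join, the first 25 bases of the first exon in capitals. The sequences are those of GENCODE M21 transcripts on GRCm38 (mm10).
Inpp5f exons 3 to 15: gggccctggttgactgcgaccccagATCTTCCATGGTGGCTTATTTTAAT
Inpp5f exons 3 to 9: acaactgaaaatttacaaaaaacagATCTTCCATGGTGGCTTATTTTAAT
Akap7 exons 6 to 7: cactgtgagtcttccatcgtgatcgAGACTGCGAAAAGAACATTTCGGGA
Cntln exons 6 to 12: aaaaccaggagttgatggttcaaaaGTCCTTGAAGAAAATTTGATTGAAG
Cntln exons 6 to 8: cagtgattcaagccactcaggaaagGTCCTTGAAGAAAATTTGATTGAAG
Cntln exons 9 to 12: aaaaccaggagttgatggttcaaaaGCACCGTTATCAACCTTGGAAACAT
The 2 Inpp5f junctions share the start of exon 3 and differ in the exon joined to it. Cntln exons 6 to 12 shares its capitals with exons 6 to 8 and its lower-case run with exons 9 to 12, so only a read that crosses the join separates these 3 circles.

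**Figure D1:**
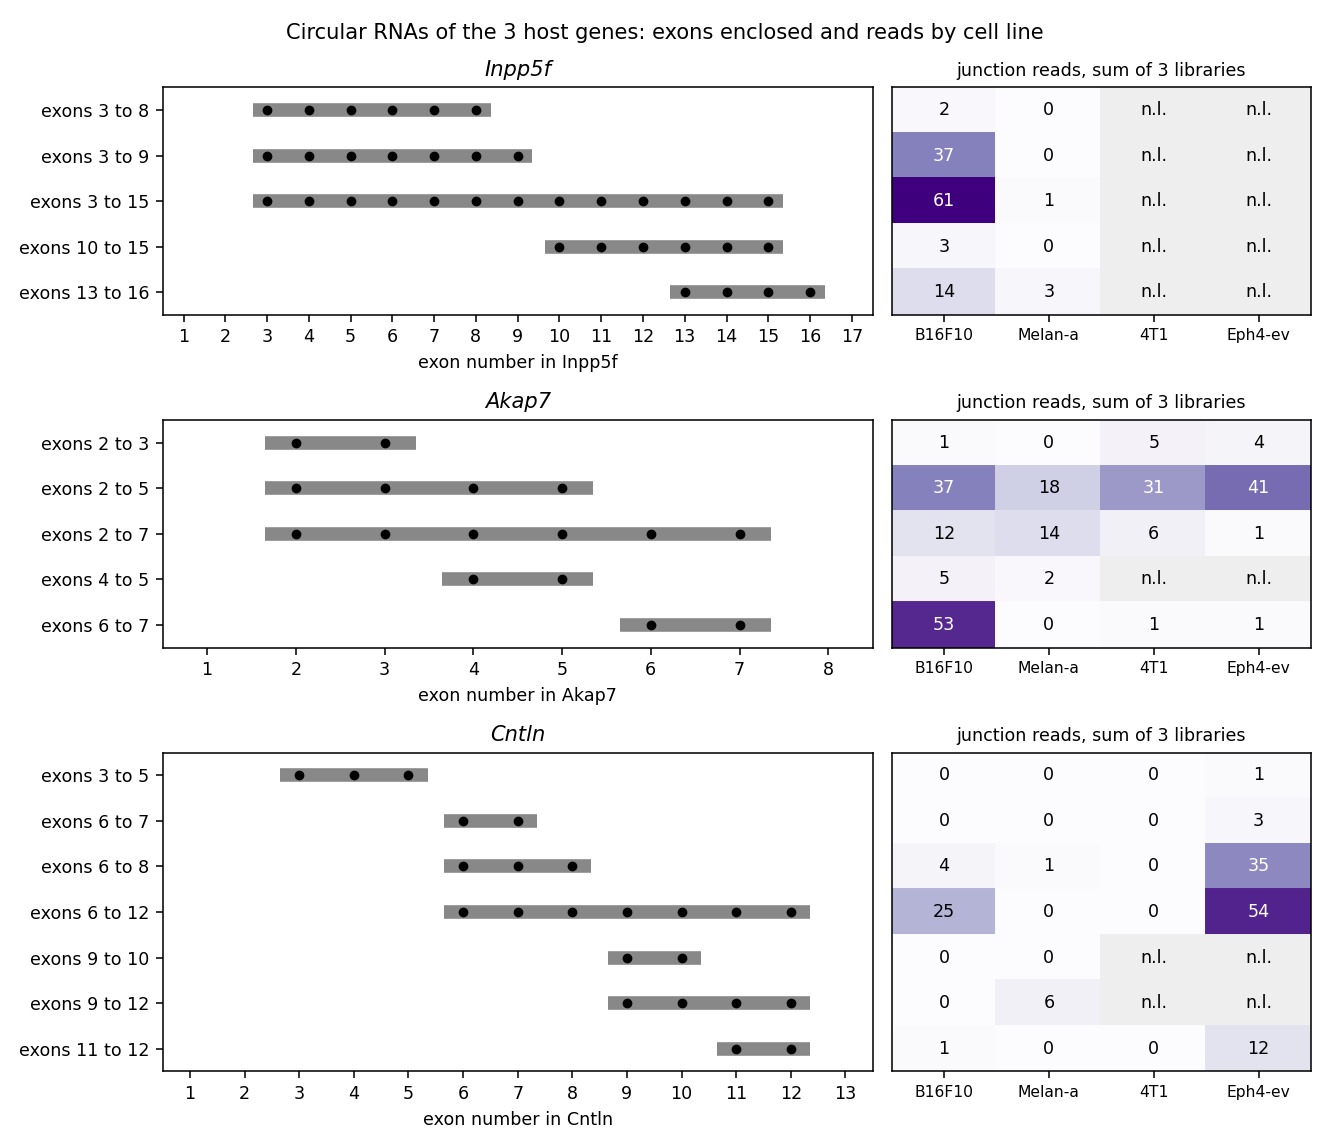
Exons enclosed by each of the 17 circRNAs (left; the x axis is the exon number in the transcript and dots mark the exons) and its junction reads summed over the 3 libraries of each line (right; n.l. means that the mammary table used here has no such row). The highest count in B16F10 is that of Inpp5f exons 3 to 15 (61), followed by Akap7 exons 6 to 7 (53), and the highest in Eph4-ev that of Cntln exons 6 to 12 (54).

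All 17 circles start and end at exon boundaries of 1 annotated transcript of their gene (Inpp5f-201 with 20 exons, Akap7-201 with 8 and Cntln-201 with 26), as did 97.9% of all circRNAs listed. Inpp5f lies on chromosome 7 (chr7:128611328-128696425, plus strand), Akap7 on chromosome 10 (chr10:25169090-25307870, minus strand) and Cntln on chromosome 4 (chr4:84884309-85131921, plus strand). The exons between the ends of a circle are taken from the annotated transcript here, since skipped exons or retained introns were not measured. Lengths, coding sequence and frames rest on this. In 14 of the 17 circles every base is coding sequence, against 83.2% of all matched circRNAs. The other 3 are the Akap7 circles that begin in exon 2, which hold 92 noncoding bases each. The circles of each gene also tile. Inpp5f exons 3 to 9 (938 bases) and 10 to 15 (770) together make exons 3 to 15 (1708). Akap7 exons 2 to 5 (579) and 6 to 7 (261) make exons 2 to 7 (840), and Cntln exons 6 to 8 (495) and 9 to 12 (521) make exons 6 to 12 (1016). Such a pair that abuts and fills another listed circle was present in all 3 genes and in 33.3% of the 454 host genes with 5 to 7 circRNAs.

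Among the host totals, Inpp5f stood furthest apart between B16F10 and Melan-a. The 3 B16F10 libraries held 44, 36 and 37 Inpp5f junction reads (2199, 2125 and 2216 RPM) and the Melan-a libraries 0, 3 and 1. The level was even over the B16F10 libraries, at 2180 ± 48.5 RPM (SD, n = 3), against 43.1 ± 44.8 RPM (SD, n = 3) in Melan-a, and the groups did not overlap. Pooled over libraries, the reads per junction read were 45.7-fold higher in B16F10 (95% exact interval 17.4 to 170). Intervals here and elsewhere cover counting error only, and in bulk cultures fewer cells that hold a circle and fewer copies per cell cannot be told apart. In edgeR's fit across all 898 host genes tested in that pair of lines, in which 7.13% were called at an adjusted p under 0.05 (2.78% higher and 4.34% lower in B16F10), the log2 differences were 5.28 for Inpp5f (SE 0.54), 2.19 for Akap7 (SE 0.39) and 2.55 for Cntln (SE 0.69). Nothing is read from these beyond their size, since the genes were chosen on them.

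**Figure D2:**
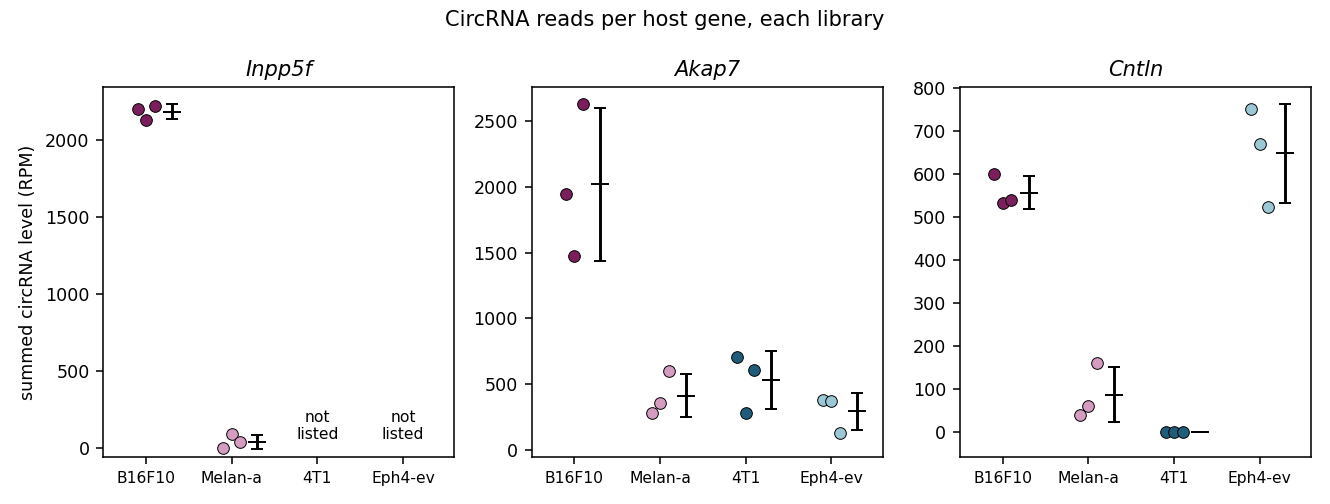
Junction reads (RPM) of each gene's circRNAs, summed per library (points), with the mean and SD of the 3 libraries of each line (bars). B16F10 is the highest line for Inpp5f and Akap7, and Cntln stands at 648 RPM in Eph4-ev, 557 in B16F10 and 0 in 4T1.

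Inpp5f gave 5 circles, of which exons 3 to 15 and exons 3 to 9 made up most of the reads in B16F10. The circle of exons 3 to 15 (chr7:128659016-128685284) was read 23, 16 and 22 times in the B16F10 libraries and 0, 1 and 0 times in those of Melan-a. With 1 Melan-a read the pooled ratio was 95.3 with a wide 95% exact interval of 16.5 to 3824, and the lowest B16F10 library (944 RPM) lay far above the highest of Melan-a (29.8 RPM). Exons 3 to 9 (chr7:128659016-128669998) held 13, 15 and 9 reads in B16F10 and 0 in each Melan-a library. Set against a floor of 3 reads over the 3 Melan-a libraries (35.8 RPM), that circle was at least 19.3-fold higher in B16F10, at 691 ± 177 RPM (SD, n = 3). These circles, which both start at exon 3 of the phosphatase transcript, took 52.1% (95% exact interval 42.7 to 61.5) and 31.6% (23.3 to 40.9) of the 117 Inpp5f reads of B16F10.

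Melan-a held Inpp5f reads mainly on another circle. Exons 13 to 16 (chr7:128679717-128690698, 518 bases) was read 4, 4 and 6 times in B16F10 and 0, 2 and 1 times in Melan-a, a pooled ratio of 7.29 (95% exact interval 2.03 to 39.6). Thus 3 of the 4 Melan-a reads of the gene fell on exons 13 to 16, which took 14 of the 117 Inpp5f reads in B16F10. The remaining circles were scarce: exons 10 to 15 had 3 reads and exons 3 to 8 had 2 in B16F10, with 0 in Melan-a. Exons 10 to 15, the piece that fills exons 3 to 15 beside exons 3 to 9, thus had 3 reads where its partner had 37.

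Akap7 was read in all 4 lines, and the circle with the largest share of its B16F10 reads had 0 or 1 read in each other line. Its total was 39, 25 and 44 reads in B16F10 (1949, 1476 and 2635 RPM) against 7, 12 and 15 in Melan-a (279, 358 and 596 RPM). Every B16F10 library lay above every Melan-a library, and the pooled ratio was 4.96 (95% exact interval 3.35 to 7.52). The circle of exons 6 to 7 (chr10:25220611-25239738, minus strand, 261 bases) held 18, 11 and 24 reads in B16F10 (900, 649 and 1437 RPM). It had 0 reads in all Melan-a libraries, 1 read in 4T1 and 1 in Eph4-ev. Against the floor of 3 reads it was at least 27.6-fold higher in B16F10 than in Melan-a.

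The circle of exons 6 to 7 took a like share of the Akap7 reads in each B16F10 library: 46.2%, 44.0% and 54.5%. Over the line that was 53 of 108 reads, or 49.1% (95% exact interval 39.3 to 58.9). In Melan-a it was 0 of 34 reads, which allows a share of up to 10.3% (upper end of the exact interval), in 4T1 1 of 43 (2.33%, 0.0589 to 12.3) and in Eph4-ev 1 of 47 (2.13%, 0.0539 to 11.3). In the 3 other lines the largest share was that of exons 2 to 5, with 52.9% in Melan-a, 72.1% in 4T1 and 87.2% in Eph4-ev, against 34.3% in B16F10. In B16F10 exons 6 to 7 and exons 2 to 5 were tied in replicate 1 (18 of 39 reads each) and replicate 2 (11 of 25 each). The lead of exons 6 to 7 in that line came from replicate 3 alone, with 24 against 8 of 44 reads. The 4T1 share rests on replicate 3: it was 5 of 11, 1 of 5 and 25 of 27 reads in the libraries, and 37.5% without replicate 3 (a check added after seeing the data). In 4T1 replicate 2 exons 2 to 7 led, with 3 of 5 reads.

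The other Akap7 circles were nearer to each other in the melanocyte lines. Exons 2 to 5 (chr10:25267308-25289730, 579 bases) held 18, 11 and 8 reads in B16F10 (900, 649 and 479 RPM) and 3, 6 and 9 in Melan-a (120, 179 and 358 RPM). The lowest B16F10 library stayed above the highest of Melan-a, with a pooled ratio of 3.21 (95% exact interval 1.78 to 5.99). Exons 2 to 7 (chr10:25220611-25289730, 840 bases) was read 2, 2 and 8 times in B16F10 and 2, 6 and 6 times in Melan-a, and its ratio of 1.34 had an interval of 0.566 to 3.12. For exons 2 to 7 the libraries of both lines overlapped. This is the circle made of exons 2 to 5 and exons 6 to 7 together, so in B16F10 the shorter pieces each had more reads (37 and 53) than the whole (12). Exons 4 to 5 had 5 reads in B16F10 and 2 in Melan-a, and exons 2 to 3 had 1 and 0.

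**Figure D3:**
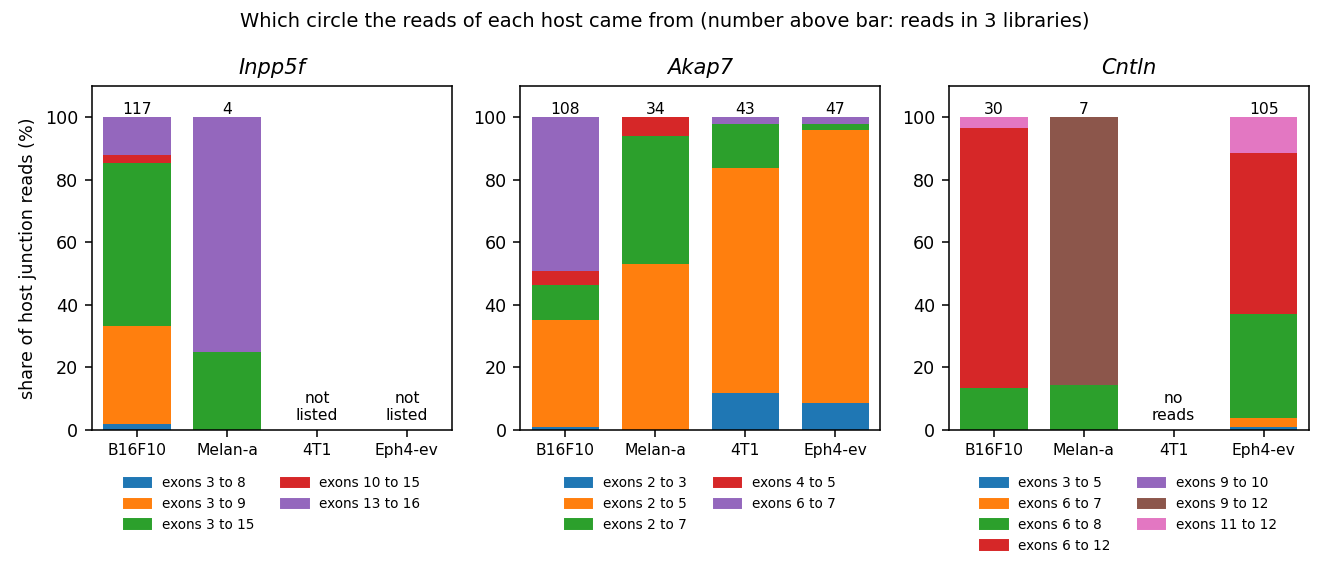
Share of each gene's junction reads taken by each of its circRNAs in each line, in percent, with the number of reads of the gene in the line. Akap7 exons 6 to 7 takes 49.1% in B16F10 and 0 to 2.33% in the other lines, and the few Cntln reads of Melan-a fall mostly on exons 9 to 12.

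The whole circle of Akap7 exons 6 to 7 is shown because its reading frame has no end. It is printed from the first base of exon 6 to the last base of exon 7 in transcript direction, and the capitals mark the start codon at base 78.
Akap7 exons 6 to 7, whole circle: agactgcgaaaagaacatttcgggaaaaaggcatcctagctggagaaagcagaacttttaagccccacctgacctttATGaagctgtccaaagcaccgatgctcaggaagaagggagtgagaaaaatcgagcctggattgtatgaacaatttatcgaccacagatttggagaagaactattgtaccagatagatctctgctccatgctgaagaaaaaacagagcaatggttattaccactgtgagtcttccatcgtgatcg
Its 261 bases are a multiple of 3 and all coding, and the frame opened by that ATG runs across the join and back to itself with no stop codon. Such an endless frame was present in 7 of the 17 circles (41.2%), which are the 7 whose length is a multiple of 3, and in 31.7% of all matched circRNAs. The others with reads were Inpp5f exons 3 to 8, Akap7 exons 2 to 5 and 2 to 7, and Cntln exons 6 to 7 and 6 to 8. The most abundant Inpp5f circles have frames that cross the join and later stop. These frames have 636 codons in exons 3 to 15 and 283 in exons 3 to 9. Over all circRNAs whose crossing frame ends, the median was 152. The frame of exons 3 to 15 is longer than a full turn of its 1708 bases, so it reads some bases again in another frame. Cntln exons 6 to 12 has a crossing frame of 306 codons. These frames lie on circles of 1708, 938 and 1016 bases, against a median of 481 over all matched circRNAs. A longer circle leaves room for a longer frame. The frames are properties of the letters of all annotated exons between the joined ends, and translation was not measured.

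Cntln was the member with opposite directions in the lineages. The host total was 12, 9 and 9 reads in B16F10 (600, 531 and 539 RPM) and 1, 2 and 4 in Melan-a (39.9, 59.6 and 159 RPM). In the mammary lines it was 38, 38 and 29 reads in Eph4-ev (750, 671 and 522 RPM) and 0 in every 4T1 library. The tumour line was thus the higher of the melanocyte pair and the lower of the mammary pair, without overlap in either. The share of all hosts with such a pattern was not counted, so it is not called particular to Cntln.

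The genes were named for the melanocyte difference, with earlier mammary results also known, and the mammary difference was tested. Cntln fell by 7.75 on the log2 scale in 4T1 (SE 1.21, edgeR quasi-likelihood test, adjusted p = 0.000779), lower in 3 of 3 libraries. With 4T1 at 0, the size of that fitted value depends on the prior count. At the Eph4-ev rate the 4T1 libraries together would have held 50.2 Cntln reads, so the level was at least 16.7-fold lower, against the floor of 3 reads. Of the 2 member genes tested there, Cntln was called and Akap7 was not, where 17.5% of 1515 host genes were called (6.86% higher and 10.6% lower in 4T1).

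**Figure D4:**
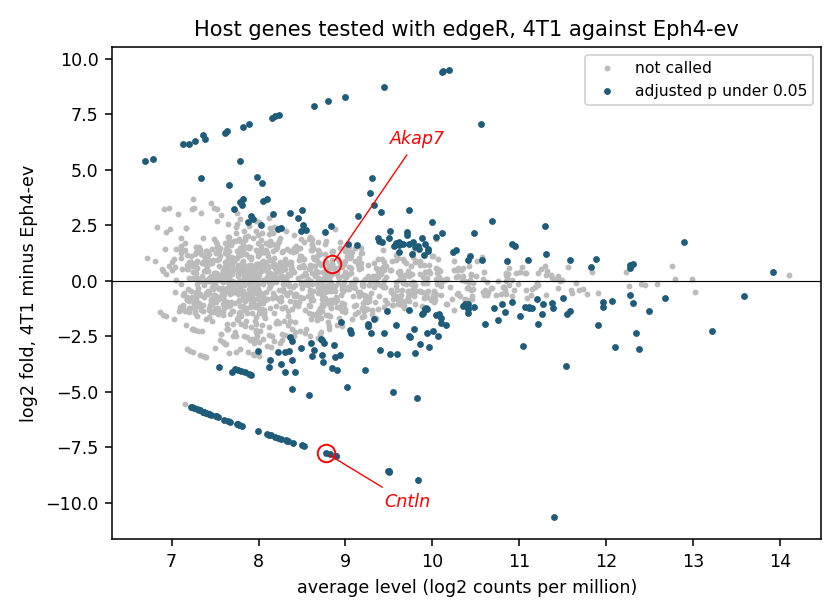
Log2 difference between 4T1 and Eph4-ev (y axis) against mean level (x axis, log2 CPM) for the 1515 host genes tested with edgeR. Coloured points passed an adjusted p of 0.05, and the straight rows of points are genes with 0 reads in 1 line. Cntln, at -7.75, lies on the lower row, and Akap7, at 0.74, among the genes not called.

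Among the Cntln circles, exons 6 to 12 (chr4:84971131-85006524, 1016 bases) led by pooled reads in both B16F10 and Eph4-ev. It held 12, 6 and 7 reads in B16F10 (600, 354 and 419 RPM) and 0 in Melan-a, at least 13.0-fold higher against the floor. Eph4-ev held 17, 19 and 18 reads (336, 335 and 324 RPM) and 4T1 held 0. The Eph4-ev libraries were nearly equal, and 4T1 was at least 8.61-fold lower. In Eph4-ev replicate 2 exons 6 to 8 also had 19 reads, so exons 6 to 12 did not lead in that library. In the fit over 1869 circRNAs exons 6 to 12 fell by 6.81 in 4T1 (log2, SE 1.36, edgeR adjusted p = 0.0132). Leaving out Eph4-ev replicate 2 ended the call (edgeR adjusted p = 0.083, log2 difference -6.72). It was 1 of the 2 member circRNAs tested, where 17.4% of all circRNAs were called (5.99% higher and 11.4% lower in 4T1).

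The mix of Cntln circles was not tested between lines and is given as shares. Exons 6 to 12 took 25 of 30 Cntln reads in B16F10 (83.3%, 95% exact interval 65.3 to 94.4) and 54 of 105 in Eph4-ev (51.4%, 41.5 to 61.3). Exons 6 to 8 (chr4:84971131-84979521, 495 bases) held 11, 19 and 5 reads in Eph4-ev, 0, 2 and 2 in B16F10, 1, 0 and 0 in Melan-a and 0 in 4T1. It was at least 5.58-fold lower in 4T1 than in Eph4-ev but did not pass the filter on low counts. With no filter it fell by 6.30 (log2, SE 1.88, edgeR adjusted p = 0.0309). Exons 11 to 12 (chr4:85004923-85006524, 242 bases) held 6, 0 and 6 reads in Eph4-ev, with 1 read in B16F10 and 0 in 4T1 and Melan-a. The reads of these circles of the centrosome linker gene were thus mostly from Eph4-ev, the line with the deepest libraries. By mean level exons 6 to 8 stood at 214 RPM in Eph4-ev and 79.3 in B16F10, and exons 11 to 12 at 75.5 and 19.7. For both circles the libraries of Eph4-ev and B16F10 overlapped.

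In Melan-a, 6 of the 7 Cntln reads came from exons 9 to 12 (chr4:84994629-85006524, 521 bases), with 0, 2 and 4 reads in its libraries and 0 in B16F10. That circle went the other way from the gene total, at least 1.28-fold lower in B16F10. That bound rests on Melan-a replicate 3, without which 2 reads remain, fewer than the floor, and Melan-a replicate 1 was at 0 as B16F10 was. Exons 9 to 12 ends at the same base as exons 6 to 12, hence the shared lower-case run of their junctions, and leaves out exons 6 to 8. The remaining circles were exons 6 to 7 with 3 reads and exons 3 to 5 with 1, all in Eph4-ev replicate 1, and exons 9 to 10, listed with 0 reads.

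Akap7 did not pass the test in the mammary lines. Its circles were read 11, 5 and 27 times in 4T1 (706, 282 and 605 RPM) and 19, 21 and 7 times in Eph4-ev (375, 371 and 126 RPM). The lines overlapped, with a log2 difference of 0.74 (SE 0.61, edgeR adjusted p = 0.463). Scaled by total reads and pooled, the total was 1.91-fold higher in 4T1 (95% exact interval 1.23 to 2.95, counting error only). Exons 2 to 7 were read 1, 3 and 2 times in 4T1 (44.8 to 169 RPM) and 1, 0 and 0 times in Eph4-ev (0 to 19.7 RPM). Every 4T1 library was the higher for that circle, at a pooled ratio of 12.5 (1.52 to 577), but it did not pass the filter on low counts. The circle of exons 2 to 5 held 5, 1 and 25 reads in 4T1 (321, 56.4 and 560 RPM) and 18, 17 and 6 in Eph4-ev (355, 300.1 and 108 RPM). It differed by 0.21 (log2, SE 0.78, edgeR adjusted p = 0.893), and 4T1 replicate 3 held 25 of its 31 reads in that line. Without that library the difference was -0.84 (edgeR adjusted p = 0.64). By mean level over the lines, Akap7 stood at 2020 RPM in B16F10, then 531 in 4T1, 411 in Melan-a and 291 in Eph4-ev. The libraries of the last 3 lines overlapped, and the tables of the 2 lineages were scaled separately.

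Set among abundant circles of B16F10, low Melan-a reads were uncommon. Of the 386 circRNAs with at least 25 reads in B16F10, 9 (2.33%) had at most 1 read in Melan-a, and 4 of those 9 belong to the 3 genes: Inpp5f exons 3 to 15 and 3 to 9, Akap7 exons 6 to 7 and Cntln exons 6 to 12. This is what the genes were chosen on and supports nothing further. The cut of 25 reads was set at the B16F10 count of Cntln exons 6 to 12, so that circle passes it by construction. The other 5 were Fto exons 2 to 7 and 2 to 8, Plagl1 exons 2 to 4, Esyt2 exons 2 to 6, and exons 2 to 4 of Ube3a, which shares its row with a second gene model. In the pair as a whole, 10.9% of 874 circRNAs tested were called by edgeR (5.03% higher and 5.84% lower in B16F10).

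**Figure D5:**
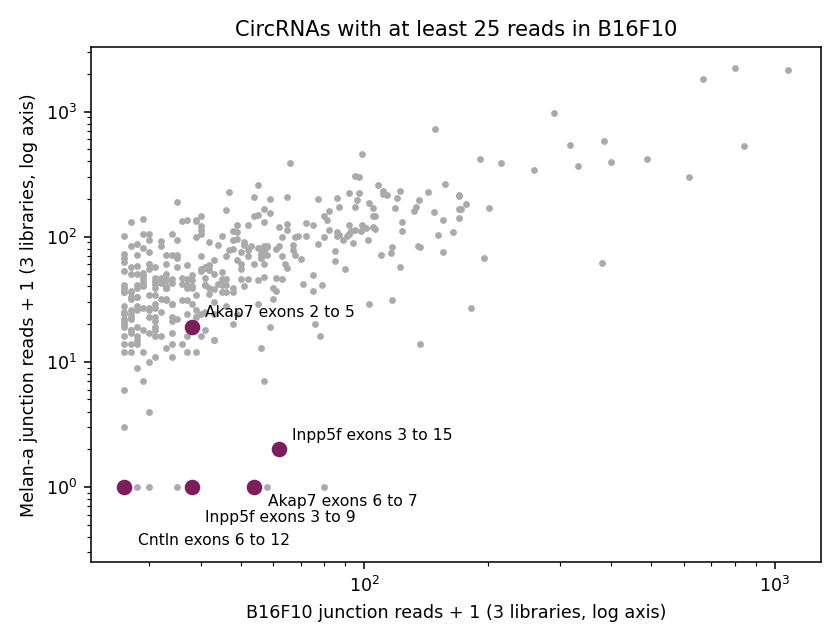
Junction reads plus 1 in Melan-a (y axis) against B16F10 (x axis), summed over 3 libraries on log axes, for the 386 circRNAs with at least 25 B16F10 reads. The 5 large points are the members: 4 of them lie at 0 or 1 Melan-a read, and Akap7 exons 2 to 5, with 18, lies at the lower side of the cloud.

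Hosts with the most similar profile over the 4 lines were found by the distance between shares of mean RPM (total variation distance, from 0 to 1), over 1669 hosts. Inpp5f has no mammary row and is given no neighbour. Nearest to Akap7 were Phrf1 (0.032), Dennd1a (0.049) and Kansl1l (0.049). Nearest to Cntln were St7 (0.052), Wtip (0.067) and Sfi1 (0.079). They had their largest shares in B16F10 and Eph4-ev and were at or near 0 in 4T1. Their levels differed: Wtip stood at 153 RPM in B16F10 and 191 in Eph4-ev, and Sfi1 at 261 and 255. St7 stood at 629 RPM in B16F10, 182 in Melan-a, 0 in 4T1 and 719 in Eph4-ev.

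Genes of the same pathways were then counted as circRNA hosts, without the 3 members. Of 53 phosphoinositide phosphatases and kinases, the group around Inpp5f, 17 were tested in the mammary lines, with 0 higher and 3 lower in 4T1 by edgeR, beside 17.5% called over all hosts (10.6% lower). Their median log2 difference was -0.32 against -0.088 over all hosts. Inpp5a, an inositol polyphosphate 5-phosphatase, was read 1, 0 and 0 times in 4T1 and 36, 20 and 17 times in Eph4-ev, a pooled difference of 34.9-fold (95% exact interval 6.08 to 1399). Its edgeR adjusted p was 0.00806, and 0.063 or 0.0662 without Eph4-ev replicate 1 or 2. Mtmr3, a myotubularin-related lipid phosphatase, had 7, 15 and 41 reads against 98, 108 and 72 (log2 -1.28, SE 0.34, edgeR adjusted p = 0.018). That call was lost without Eph4-ev replicate 1 or 2 (edgeR adjusted p = 0.0695 and 0.128). In B16F10 against Melan-a, 0 of the 9 tested were called by edgeR or DESeq2, beside 7.13% of all hosts called by edgeR. There was 1 at an unadjusted p under 0.05, and the median was 0.32 against -0.0015.

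The kinase anchoring and centrosome groups gave no call. Over all hosts edgeR called 17.5% in the mammary and 7.13% in the melanocyte lines. With so few genes tested, nothing is read from the absence of calls. Of 46 genes of A-kinase anchoring, protein kinase A and cAMP turnover, around Akap7, 3 were tested in the mammary and 4 in the melanocyte lines. EdgeR and DESeq2 called 0 in both, with 1 at an unadjusted p under 0.05 in each. The medians were -1.22 and 0.68, against -0.088 and -0.0015 over all hosts. Of 73 centriole and centrosome genes, around Cntln, 13 and 7 were tested and 0 were called by either tool. At an unadjusted edgeR p under 0.05 there were 4 in the mammary lines, each lower in 4T1, and 1 in the melanocyte lines. Their medians were -0.42 in the mammary and 0.31 in the melanocyte lines, beside the same medians over all hosts as above. The share of all hosts at an unadjusted p under 0.05 was not counted, so nothing is read from such counts in any of these lists.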

How the data were processed

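Junction reads were analysed in 12 libraries of 4 mouse lines. Linear RNA was digested with RNase R and circles were called by CIRI2 (BWA-MEM) and CIRCexplorer2 (TopHat), per the labels' protocols. Coordinates are on mm10, which the submitters' processing notes name, and how the callers were combined is not given in the sources used here. The deposited count columns hold raw junction reads per circRNA and library. The deposited RPM columns were made by the authors by scaling each count to the total of its column: 100% of values gave whole reads within 0.01, equal to the deposited counts. RPM therefore describes a share of junction reads, not an amount per cell.

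Counts were summed per host over rows with exactly 1 host. The 160 and 201 rows with several hosts name no member. Each lineage was tested alone in R 4.3.3 with edgeR 4.0.16 (quasi-likelihood test with TMM factors). Low features were removed by filterByExpr at a minimum count of 5 and total of 10, p-values were adjusted over all features by Benjamini-Hochberg, and a call needed an adjusted p under 0.05. Ratios and bounds rest on total junction reads only, which is another scale than that of the log2 differences. A bound uses a floor of 3 reads over a line at 0, and intervals are 95% exact. Exons, frames and junction letters came from GENCODE M21, with every exon between the joined ends kept. A frame starts at ATG and crosses the join.

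The members, lists, named genes and tests were chosen with earlier results of these data known. Every member with at least 10 reads was named, as were up to 4 called hosts per list and direction and, for Akap7 and Cntln, the 3 nearest hosts by profile among those with at least 30 reads. Of the called list hosts, 1 is not reported here. Alternatives were RLE factors, total reads alone, a stricter filter (count 10, total 20), no filter, DESeq2 1.42.0, replicate number as a block, each library left out, rows with several hosts, and circRNAs with at least 2 reads in the library. The scripts were tested on simulated data. Replicate libraries of a line differed by more than sampling noise, so none was merged as a library deposited more than 1 time (chi-square per degree of freedom 1.69 to 5.06).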

Additional observations from a re-analysis of the deposited data

Results flagged for a closer look

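The Cntln total went in opposite directions in the lineages. Every B16F10 library (mean 557 RPM) was above every Melan-a library, while every 4T1 library, at 0, was below every Eph4-ev library (mean 648 RPM). The same held for the circle of Cntln exons 6 to 12, with means of 458 RPM in B16F10 and 332 RPM in Eph4-ev and 0 in Melan-a and 4T1. The difference between the lineages was not tested, and Cntln had been chosen for its direction in the melanocyte lines. The share of all hosts and circRNAs with such a pattern was not counted. By pooled reads, Ube3a exons 2 to 4 also had 27 in B16F10 and 42 in Eph4-ev, with 0 in Melan-a and 4T1.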

How the results depend on the processing

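The Cntln total stayed called under every alternative run (edgeR adjusted p 0.00168 to 0.0321 and log2 -7.92 to -7.59 when 1 library was left out). With 0 reads in every 4T1 library its direction could not change, and the range of its fitted difference is no sign of stability. Cntln exons 6 to 12 ran from -6.99 to -6.72 (edgeR adjusted p 0.0192 to 0.083). The difference of Akap7 exons 2 to 5 changed sign with no filter (-0.076, edgeR adjusted p = 0.962), with the replicate block (-0.029, edgeR adjusted p = 0.99) and without single libraries (-0.84 to 0.62), and it passed the threshold in none of these. The Akap7 total ran from 0.31 to 0.99. With 1 library left out, calls numbered 72 to 247 circRNAs and 73 to 261 hosts in the mammary lines, and 42 to 145 circRNAs and 32 to 123 hosts in the melanocyte lines, against 325, 265, 95 and 64. The low ends of the mammary counts came without Eph4-ev replicate 2 and the high ends of the melanocyte counts without Melan-a replicate 2; the cause was not tested.

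Without the filter on low counts, 31 centrosome hosts were tested and 1 was lower in 4T1, and 36 were tested and 1 was higher in B16F10. Over all hosts in the same fits, 293 of 3617 were called in the mammary lines and 82 in the melanocyte lines. Nothing is read from the single calls in the list. Pairing by replicate number was looked for in each library's deviations from the mean of its line. Correlations of these between same-numbered libraries were -0.039 to 0.029 in the mammary and -0.057 to 0.067 in the melanocyte lines. With 3 libraries per line and few reads per circRNA, such values cannot show whether libraries were paired. With the replicate block, 248, 217, 78 and 69 features were called, in the order mammary circRNAs and hosts, melanocyte circRNAs and hosts. Depth limits the circles with few reads: at 35.8 RPM for the floor in Melan-a and 38.5 in 4T1, levels below these cannot be told from 0.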

Other observations

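The melanocyte and mammary tables carry a circBase and a Web column, and either being filled was counted as a database entry. Of the 17 members, 12 have an entry and 5 have none: Inpp5f exons 3 to 8, 3 to 9, 3 to 15 and 10 to 15, and Akap7 exons 6 to 7. Over all circRNAs listed, 77.1% have an entry, and of the 386 with at least 25 reads in B16F10 98.2% have one, which leaves 7 without. Of the 9 abundant B16F10 circles with at most 1 Melan-a read, 6 have no entry. These are the circles of Inpp5f exons 3 to 15 and 3 to 9, Akap7 exons 6 to 7, both of Fto and that of Plagl1. The most abundant circles of Inpp5f and Akap7 in B16F10 were thus among the few abundant ones without an entry, while the leading circle of Cntln has one.

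The introns beside the circles are given for the 4 circles picked for few Melan-a reads. Akap7 exons 6 to 7 lies between introns of 27569 and 49362 bases, Cntln exons 6 to 12 between 13951 and 27263, Inpp5f exons 3 to 15 between 22777 and 5342, and Inpp5f exons 3 to 9 between 22777 and 5299. The medians over all matched circRNAs were 7561 bases upstream and 5446 downstream. The 2 Inpp5f circles share their upstream intron. Over the 17 members, upstream introns ran from 1599 to 58826 bases and downstream introns from 1053 to 49362.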
